A study of Mus musculus with 8 samples.

Results

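The genes described are 9 of the 55421 genes in the count table, chosen by symbol because they mark the macrophages of the splenic red pulp and marginal zone. These were Hmox1, Slc40a1, Spic, Vcam1, Cd5l, Fcna, Marco, Cd163 and Siglec1. All 9 were also among the 12997 genes that passed the filter on low counts. They were proposed after macrophage genes had been seen at higher levels in CC than in CB libraries, so the CC values below are set beside CB values as a description and carry no test. The comparison of genotypes was not used in that choice and was tested.

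RNA was sequenced in bulk from splenic germinal centre B cells of C57BL/6 mice aged 8 to 10 weeks, taken on day 10 of an immune response and isolated with a bead kit based on the lectin PNA. The groups were Smarca4+/- CC, Smarca4+/+ CC, Smarca4+/- CB and Smarca4+/+ CB, with 2 libraries in each. CB and CC are read here as centroblasts and centrocytes. The Smarca4+/- mice have lost 1 copy of Smarca4, the gene of BRG1, the motor protein of a complex that moves nucleosomes. The sources used here do not give the cells in which that copy was lost, the immunogen, or how CB and CC were separated. Nor do they say whether replicates were separate mice. The p-values set a difference between groups against the spread of libraries within groups, estimated over all 8 libraries. That spread may be technical.

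Red pulp macrophages engulf aged red blood cells, break down their heme and return the iron to the blood. Marginal zone macrophages lie at the border of the white pulp and take up particles from the blood with scavenger receptors and lectins, while metallophilic macrophages line its inner side. Neither cell is a B cell, and neither is the target of a PNA isolation.

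The CC libraries held 526353 to 837558 counts and the CB libraries 18357578 to 24341805, a ratio of the means of 32.7. Smarca4 itself stood at 244 and 311 CPM (the count scaled to the size of its library, with TMM factors) in Smarca4+/- CC, against 322 and 316 in Smarca4+/+ CC. It stood at 734 and 702 CPM in Smarca4+/- CB, against 897 and 1002 in Smarca4+/+ CB. The labelled cell type was checked by 9 B cell and germinal centre genes, such as Cd22, Pax5 and Ms4a1. They summed to 7485 to 10532 CPM in the CC libraries and to 8793 to 10518 CPM in the CB libraries, and of the 9, 0 rose, and 0 (Smarca4+/-) and 1 (Smarca4+/+) fell, in CC against CB by edgeR's quasi-likelihood test.

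Promoter sequences of 5 of the 9 genes were available from RefSeq (build GRCm38.p6, the same assembly as mm10). The 190 bases before each RefSeq start are shown for genes that were high in the same libraries. They lie at chr10:88683024-88683213 (Spic, minus strand), chr3:87357691-87357880 (Cd5l, plus strand), chr2:25627975-25628164 (Fcna, minus strand), chr1:120505025-120505214 (Marco, minus strand) and chr6:124304461-124304650 (Cd163, plus strand). The Spic window lies inside the counted gene (88674772 to 88685015). The Fcna window overlaps the counted gene, which reaches 25628030. Capitals mark GAGGAA on either strand, a core that ETS factors of the PU.1 and SpiC kind are known to bind.
Spic: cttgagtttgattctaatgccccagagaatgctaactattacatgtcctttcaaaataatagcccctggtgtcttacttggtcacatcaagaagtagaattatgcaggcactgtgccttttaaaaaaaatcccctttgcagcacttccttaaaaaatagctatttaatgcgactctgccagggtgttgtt
Cd5l: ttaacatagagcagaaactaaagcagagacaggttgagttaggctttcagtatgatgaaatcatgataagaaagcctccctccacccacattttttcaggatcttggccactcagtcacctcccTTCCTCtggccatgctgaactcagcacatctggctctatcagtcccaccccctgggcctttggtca
Fcna: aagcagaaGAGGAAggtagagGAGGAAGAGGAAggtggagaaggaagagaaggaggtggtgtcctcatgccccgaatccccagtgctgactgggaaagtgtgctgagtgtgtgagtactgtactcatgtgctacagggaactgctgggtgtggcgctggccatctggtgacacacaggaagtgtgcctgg
Marco: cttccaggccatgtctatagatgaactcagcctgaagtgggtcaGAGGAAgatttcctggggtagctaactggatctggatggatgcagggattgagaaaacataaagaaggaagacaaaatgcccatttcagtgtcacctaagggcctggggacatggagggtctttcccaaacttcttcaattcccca
Cd163: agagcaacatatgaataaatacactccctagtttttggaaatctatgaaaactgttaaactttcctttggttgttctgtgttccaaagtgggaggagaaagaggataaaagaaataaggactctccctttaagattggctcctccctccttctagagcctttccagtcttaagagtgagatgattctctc

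In the full window of 300 bases (250 before to 50 after the start), GAGGAA was found in 3 of the 5 promoters, those of Fcna, Marco and Cd5l. It was found in 28.3% of all 32851 promoter windows of that length. The Fcna window held it at -182, -169 and -163 and again at 41 bases from the start, where the copies at -169 and -163 lie end to end without overlap. TGACNNNGC, the core of the antioxidant element through which heme and oxidants are known to act on genes such as Hmox1, was found in 0 of the 5 windows and in 12.4% of all windows. TATAAA was found in 0 of the 5 and in 13.6% of all. Both strands were searched, and a match is a description of the letters only.

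Hmox1 encodes heme oxygenase, the enzyme that opens the heme ring and frees its iron (ENSMUSG00000005413.8, mm10 chromosome 8, 75093621 to 75100589, plus strand). It stood at 443 and 341 CPM in Smarca4+/- CC, at 543 and 490.4 in Smarca4+/+ CC, at 18.2 and 11.5 in Smarca4+/- CB and at 11.4 and 35.8 in Smarca4+/+ CB. Every CC library lay above every CB library, and Smarca4+/+ CB replicate 2 was 3.14 times replicate 1. The mean was 26.4-fold higher in CC than in CB in Smarca4+/- cells and 21.9-fold higher in Smarca4+/+ cells. In bulk RNA, more cells of a type and more RNA per cell cannot be told apart.

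Slc40a1 encodes ferroportin, the only known iron exporter of animal cells (ENSMUSG00000025993.10, chromosome 1, 45908068 to 45926523, minus strand). Its levels were 549 and 229 CPM in Smarca4+/- CC, 327 and 386 in Smarca4+/+ CC, 15.2 and 10.7 in Smarca4+/- CB and 6.96 and 42.3 in Smarca4+/+ CB. CC and CB did not overlap, and the spread was widest between the 2 Smarca4+/+ CB libraries (6.08 times). The ratio of CC to CB means was 30.03 in Smarca4+/- and 14.5 in Smarca4+/+ cells.

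Spic encodes SpiC, the transcription factor that red pulp macrophages need to develop (ENSMUSG00000004359.16, chromosome 10, 88674772 to 88685015, minus strand). It gave 101 and 32.0 CPM in Smarca4+/- CC, 50.03 and 9.81 in Smarca4+/+ CC, 3.43 and 3.60 in Smarca4+/- CB and 0.610 and 6.21 in Smarca4+/+ CB. The lowest CC value, Smarca4+/+ replicate 2, rested on 6 counts and was the nearest to the CB libraries. The CC libraries of a genotype differed 3.17 times (Smarca4+/-) and 5.10 times (Smarca4+/+), beside CC to CB ratios of 19.0 and 8.78. On the log2 scale the Smarca4+/+ value was 3.11, but 1.51 without CC replicate 1 and 5.63 without CB replicate 2, and the Smarca4+/- value was 4.24, but 3.16 without CC replicate 1.

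Vcam1 encodes an adhesion molecule carried by red pulp macrophages and also by stromal and endothelial cells (ENSMUSG00000027962.14, chromosome 3, 116109949 to 116129688, minus strand). It was the most abundant of the 9 by CPM in CC, at 801 and 358 in Smarca4+/- and 729 and 609.7 in Smarca4+/+. In CB it stood at 27.8 and 18.0 CPM in Smarca4+/- and at 6.81 and 55.2 in Smarca4+/+. The CC to CB ratios were 25.3 in Smarca4+/- and 21.6 in Smarca4+/+ cells, and the Smarca4+/+ CB libraries differed 8.11 times. An antisense gene, Gm43109, overlaps Vcam1 and held at most 4 counts in a library.

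Cd163 encodes the receptor that takes up haemoglobin bound to haptoglobin (ENSMUSG00000008845.9, chromosome 6, 124304656 to 124330527, plus strand). Its levels were 163 and 52.2 CPM in Smarca4+/- CC, 175 and 81.7 in Smarca4+/+ CC, 3.48 and 2.16 in Smarca4+/- CB and 1.12 and 10.9 in Smarca4+/+ CB. No CC library overlapped a CB library. The means were 38.1-fold higher in CC in Smarca4+/- and 21.3-fold higher in Smarca4+/+ cells.

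Cd5l encodes a secreted scavenger protein of tissue macrophages (ENSMUSG00000015854.7, chromosome 3, 87357881 to 87371073, plus strand). It stood at 123 and 49.8 CPM in Smarca4+/- CC, 64.3 and 160.2 in Smarca4+/+ CC, 4.797 and 4.23 in Smarca4+/- CB and 4.27 and 5.09 in Smarca4+/+ CB. It was the steadiest of the 9 across CB, where the other 8 differed by at least 2-fold between the Smarca4+/+ libraries and Cd5l differed 1.19 times. The CC to CB ratio was 19.1 in Smarca4+/- and 24.0 in Smarca4+/+ cells.

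Fcna encodes ficolin A, a lectin that starts complement on foreign sugars (ENSMUSG00000026938.10, chromosome 2, 25624666 to 25628030, minus strand). It gave 223 and 71.1 CPM in Smarca4+/- CC, 216 and 198 in Smarca4+/+ CC, 4.32 and 2.88 in Smarca4+/- CB and 3.96 and 11.1 in Smarca4+/+ CB. The CC to CB ratio was 40.8 in Smarca4+/- and 27.5 in Smarca4+/+ cells. Its antisense gene Fcnaos had 8 counts in Smarca4+/+ CB replicate 2 and 0 elsewhere. No source used here states the strand setting of the counting, so reads of such pairs cannot be told apart.

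Marco encodes a scavenger receptor of marginal zone macrophages (ENSMUSG00000026390.7, chromosome 1, 120474538 to 120505024, minus strand). It had 14 and 2 counts in Smarca4+/- CC, 20 and 14 in Smarca4+/+ CC, 0 and 0 in Smarca4+/- CB and 0 and 25 in Smarca4+/+ CB, or 18.7 and 2.37, 35.7 and 22.9, 0 and 0, and 0 and 1.17 CPM in the same order. Taking 3 counts as the most that a count of 0 allows gave a limit of 0.0754 CPM for both Smarca4+/- CB libraries together. On that limit, which takes counts as independent, the mean of Marco in Smarca4+/- CC was at least 139.7-fold the CB level. The limit covers the CB side only, and the CC mean rested on 14 and 2 counts. The log2 value was 9.76 in Smarca4+/- cells and ran from 5.89 to 10.8 over the alternatives run. In Smarca4+/+ cells it was 50.2-fold higher, with every CB read from replicate 2.

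Siglec1 encodes sialoadhesin, a sialic acid receptor of metallophilic macrophages (ENSMUSG00000027322.11, chromosome 2, 131069220 to 131086765, minus strand). It stood at 32.0 and 35.6 CPM in Smarca4+/- CC, 19.7 and 39.2 in Smarca4+/+ CC, 0.738 and 1.39 in Smarca4+/- CB and 0.610 and 4.48 in Smarca4+/+ CB. The CC to CB ratio was 31.7 in Smarca4+/- and 11.6 in Smarca4+/+ cells. The CC values rested on 11 to 30 counts a library.

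**Figure D1:**
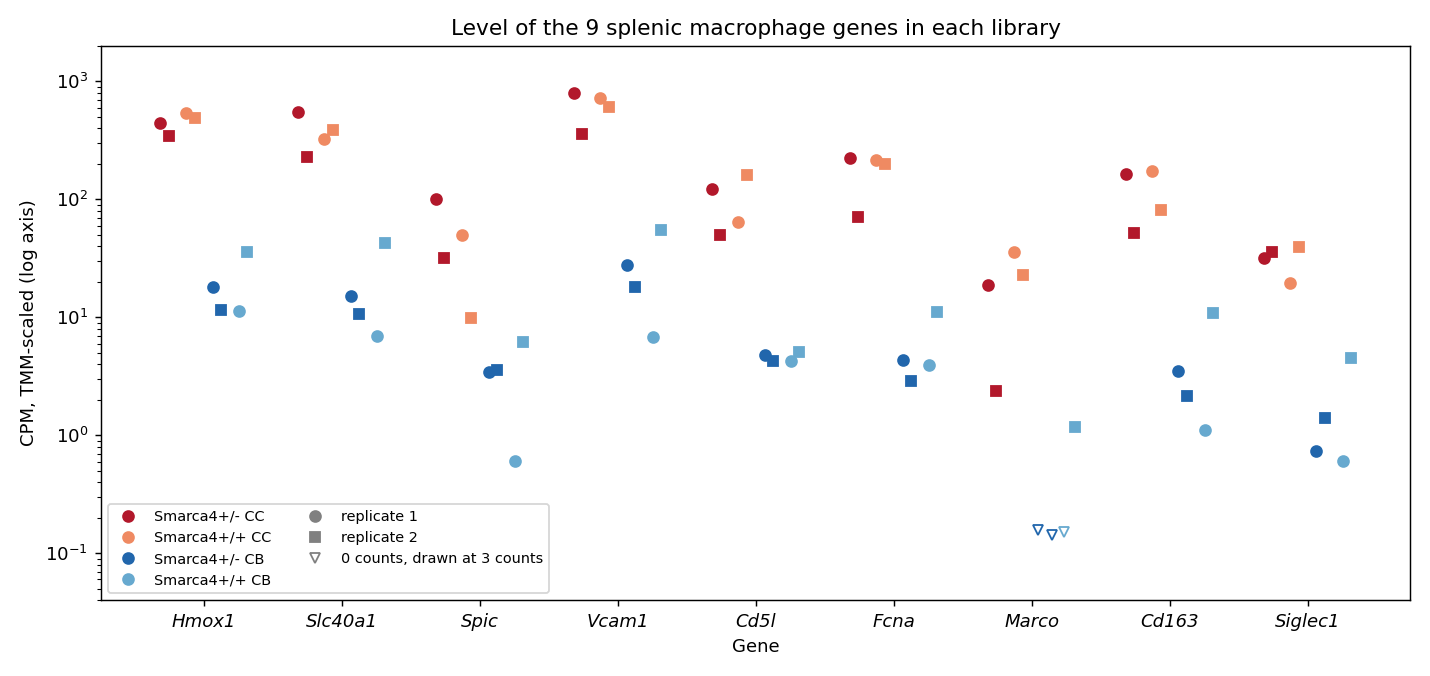
Level of each gene in each library, in TMM-scaled CPM on a log axis, with 1 point per library and 3 Marco libraries at 0 counts drawn at the level of 3 counts. The CC points lie above the CB points for every gene, and Smarca4+/+ CB replicate 2 is the highest CB library for each.

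In both genotypes all 9 genes were higher in both CC libraries than in both CB libraries. Among all genes tested that held for 20.2% in Smarca4+/- and 18.2% in Smarca4+/+ cells. The median log2 fold change of the 9 was 4.91 in Smarca4+/- cells, where that of all genes was -0.08, and 4.43 in Smarca4+/+ cells, where that of all genes was -0.19. The first median is the same with Marco held at its bound. Without Smarca4+/+ CB replicate 2 the log2 value in Smarca4+/+ cells was 5.56 for Hmox1 (4.45 with it), 5.73 for Slc40a1 (3.85), 5.63 for Spic (3.11), 6.67 for Vcam1 (4.43), 5.76 for Fcna (4.77), 6.88 for Cd163 (4.40) and 5.62 for Siglec1 (3.53). Without Smarca4+/+ CB replicate 1 it was 3.10 for Slc40a1, 2.29 for Spic, 3.63 for Vcam1, 3.58 for Cd163 and 2.74 for Siglec1. Without Smarca4+/+ CC replicate 1 it was 1.51 for Spic and 3.74 for Cd163, and without Smarca4+/+ CC replicate 2 it was 3.77 for Cd5l (4.59), 2.92 for Siglec1 and 3.85 for Spic. In Smarca4+/- cells, leaving out CC replicate 1 gave 4.12 for Slc40a1 (4.91 with it), 3.16 for Spic (4.24), 3.95 for Vcam1 (4.66), 3.44 for Cd5l (4.25), 4.28 for Fcna (5.34) and 4.19 for Cd163 (5.24). These are the values behind the choice of the genes, and nothing is read from them. Unscaled, the 9 genes drew 988 to 1838 counts from a CC library and 703 to 3691 counts from a CB library. They made up 0.118% to 0.272% of the CC counts and 0.00346% to 0.0152% of the CB counts.

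Divided by the exon length counted, Hmox1 led in every group, and stood at 224 ± 41.1 CPM per kb in Smarca4+/- CC and 295 ± 21.3 in Smarca4+/+ CC (SD, n = 2 each). Fcna came next at 107 ± 78.2 and 151 ± 9.48, and Vcam1 after it at 65.3 ± 35.3 and 75.5 ± 9.51 CPM per kb. Siglec1 was lowest in CC at 4.73 ± 0.348 and 4.12 ± 1.94. The libraries of neighbours in this order overlapped in Smarca4+/- CC at each step below Hmox1. In Smarca4+/+ CC the steps from Hmox1 to Fcna, from Fcna to Vcam1 and from Slc40a1 (39.6) to Cd163 (23.5) did not overlap, and the other steps did.

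The libraries of a group differed, and they differed for most of the 9 genes at the same time. Smarca4+/+ CB replicate 2 was the highest CB library for 9 of the 9, which was the case for 25.7% of all genes. It exceeded Smarca4+/+ CB replicate 1 by at least 2-fold for 8 of the 9, against 8.95% of all genes. The summed level of the 9 was 172 CPM in Smarca4+/+ CB replicate 2 and 35.7 in replicate 1, with 77.9 and 54.5 in the Smarca4+/- CB libraries. Among the other lists, other splenic macrophage genes summed to 294 CPM in Smarca4+/+ CB replicate 2 and 143 in replicate 1, and 12 of 14 tested were at least 2-fold higher. Erythroid genes (15.8 and 19.4 CPM), T cell genes (134.7 and 136 CPM) and B cell genes (9422 and 10518 CPM) were close to equal or lower in replicate 2.

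In CC, Smarca4+/- replicate 2 was the lowest CC library for 7 of the 9 genes, the exceptions being Spic and Siglec1. Of all genes, 16.3% were lowest in that library. Smarca4+/- replicate 1 exceeded replicate 2 by at least 2-fold for 7 of the 9, against 26.7% of all genes. The 9 summed to 2454 and 1171 CPM in Smarca4+/- CC, against 2160 and 1998 CPM in Smarca4+/+ CC. Here the other lists differed too. Other splenic macrophage genes summed to 2828 CPM in Smarca4+/- CC replicate 1 and 1131 in replicate 2, and C1q and phagocyte genes to 2744 and 1264. Erythroid genes summed to 518 and 147 CPM, and neutrophil genes to 385 and 80.6. B cell genes (7485 and 9577 CPM), dendritic cell genes (24.0 and 48.6) and heme and oxidant response genes (335 and 358) were lower in replicate 1. The part of these lists in the values of the 9 genes was not tested.

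The summed level of the 9 genes ran from 35.7 to 2454 CPM, and the shares of single genes in their reads also differed between libraries. Vcam1 made up 32.6% (95% exact binomial interval 30.5 to 34.8) and 30.6% (27.7 to 33.5) of their reads in Smarca4+/- CC, 33.7% (31.1 to 36.5) and 30.5% (28.0 to 33.2) in Smarca4+/+ CC, and 35.7% (33.2 to 38.2) and 33.0% (30.3 to 35.9) in Smarca4+/- CB. In Smarca4+/+ CB it made up 19.1% (16.2 to 22.2) in replicate 1 and 32.1% (30.5 to 33.6) in replicate 2. Slc40a1 made up 15.1% to 24.6% and Hmox1 18.1% to 31.9% over the 8 libraries. Smarca4+/+ CB replicate 1, with the fewest reads of the 9 (703), thus held the lowest share of Vcam1 and the highest of Hmox1. Cd5l also had its highest share there, 11.9% (9.64 to 14.6), against 2.95% (2.43 to 3.55) in replicate 2. Spic ran from 0.491% (0.18 to 1.07) in Smarca4+/+ CC replicate 2 to 6.61% (5.23 to 8.21) in Smarca4+/- CB replicate 2, and Marco from 0 in 3 CB libraries to 1.65% (1.013 to 2.54) in Smarca4+/+ CC replicate 1. Reads carried no molecular tags, so the intervals cover at most the counting error of independent reads. Small counts were often even, such as 14, 2, 20 and 14 for Marco in CC. Counts may therefore not be independent, and the intervals may be too narrow.

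**Figure D2:**
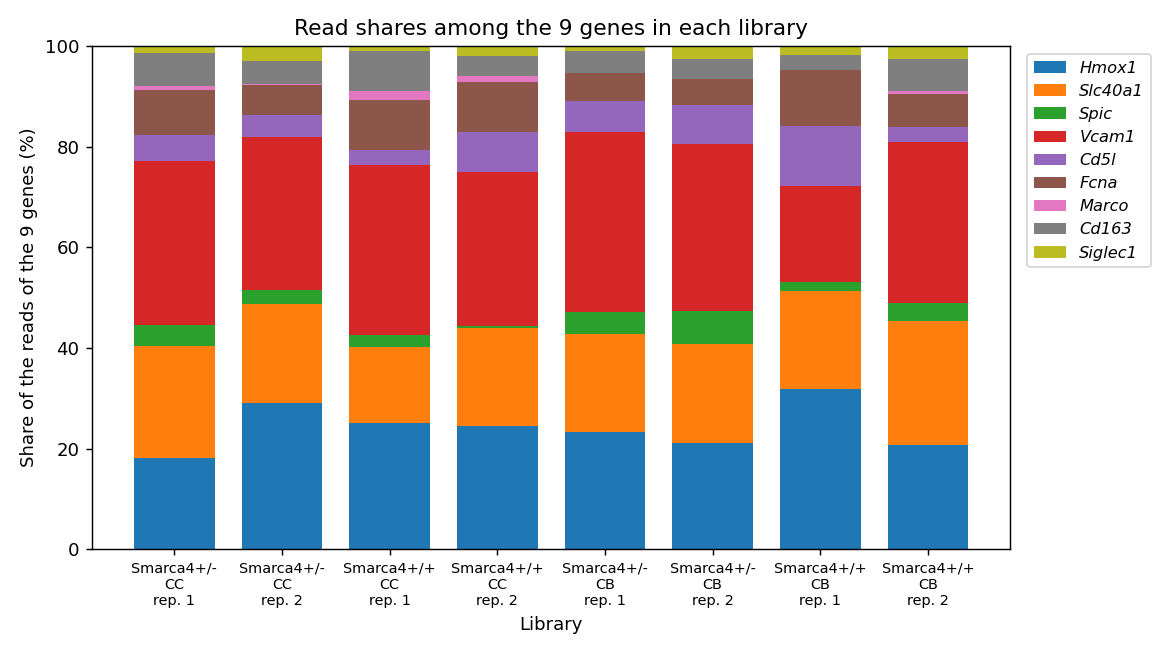
Share of the reads of the 9 genes that each gene took, in percent, with 1 stacked bar per library. Vcam1, Hmox1 and Slc40a1 hold most of each bar, and Smarca4+/+ CB replicate 1 has the smallest Vcam1 share, 19.1%.

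Between genotypes, no change was called in any of the 9 genes. In CC, 0 of 9 passed edgeR's quasi-likelihood test (smallest adjusted p = 0.567), where 0.0231% of all genes did, and 0 of 9 had an unadjusted p under 0.05, where 15.2% of all genes did. Spic had the largest positive log2 fold change, 1.17 (SE 0.99, adjusted p = 0.567), with overlapping libraries. It was 0.11 without Smarca4+/- CC replicate 1, 1.77 without Smarca4+/- CC replicate 2, 2.74 without Smarca4+/+ CC replicate 1 and 0.40 without Smarca4+/+ CC replicate 2. Hmox1 (-0.40, SE 0.42, adjusted p = 0.667) and Marco (-1.49, SE 1.39, adjusted p = 0.613) were lower in both Smarca4+/- CC libraries than in both Smarca4+/+ CC libraries. Marco stood at -3.63 without Smarca4+/- CC replicate 1 and at -0.66 without Smarca4+/- CC replicate 2. Such a separation downward held for 14.4% of all genes, so 2 of 9 is near the background.

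The remaining 6 lay between -0.50 (SE 0.53) for Fcna and 0.19 (SE 0.86) for Siglec1 in CC, with Slc40a1 at 0.12 (SE 0.63). Which Smarca4+/- CC library was kept decided several signs. Without Smarca4+/- CC replicate 2, 7 of the 9 were positive, such as Slc40a1 at 0.61, Vcam1 at 0.25 and Cd163 at 0.34. Without Smarca4+/- CC replicate 1, 7 of the 9 were negative, with Slc40a1 at -0.65, Vcam1 at -0.91 and Cd163 at -1.30. Leaving out Smarca4+/+ CC replicate 1 moved Cd163 to 0.37, Siglec1 to -0.23 and Slc40a1 to -0.00598, and leaving out Smarca4+/+ CC replicate 2 moved Cd5l to 0.41. The 3 genes called in CC over the whole table, named after their values were seen, were immunoglobulin genes, Igha (-4.66, SE 0.56, adjusted p = 0.0175), Ighg2b (-2.08, SE 0.22, adjusted p = 0.00883) and Ighv1-42 (-4.90, SE 0.49, adjusted p = 0.00883).

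In CB, 0 of 9 passed the edgeR test (smallest adjusted p = 1), where 0.0% of all genes did, and 1 of 9, Marco, had an unadjusted p under 0.05 (0.0262), where 0.646% of all genes did. Marco was at 0 in both Smarca4+/- CB libraries, and at 0 and 25 counts in Smarca4+/+ CB, so that it was at least 7.74-fold lower on the strength of 1 library. The log2 fold changes were negative for 8 of 9, with a median of -0.93 against -0.00435 for all genes. They included Fcna (-1.07, SE 0.54), Cd163 (-1.10, SE 0.81), Siglec1 (-1.25, SE 0.83), Slc40a1 (-0.93, SE 0.62) and Hmox1 (-0.67, SE 0.42). In each of the 9, 1 Smarca4+/+ CB library lay above both Smarca4+/- CB libraries and the groups overlapped, while 32.1% of all genes did not overlap.

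That direction rested on Smarca4+/+ CB replicate 2. Without it 7 of the 9 were positive, among them Spic at 2.51, Vcam1 at 1.76, Cd163 at 1.34, Slc40a1 at 0.91, Siglec1 at 0.81, Hmox1 at 0.40 and Cd5l at 0.09, while Fcna was at -0.13 and Marco was at 0 in all CB libraries left. Without Smarca4+/+ CB replicate 1, all 9 were negative. With the CB libraries thinned to the depth of CC, Fcna stood at -0.082, Slc40a1 at -0.16, Cd163 at -0.47 and Siglec1 at -1.84. Over all alternatives run, the smallest adjusted p of any of the 9 was 0.150 in CB and 0.258 in CC, DESeq2 included.

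**Figure D3:**
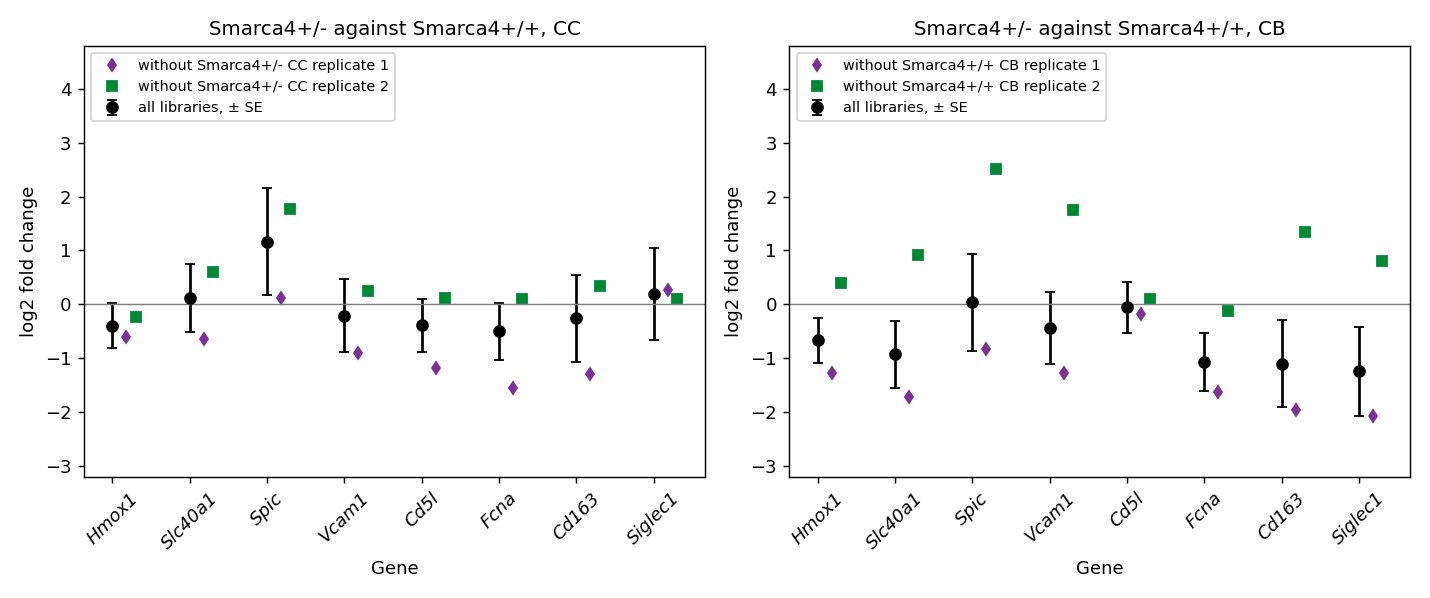
Log2 fold change (edgeR) of 8 genes, Smarca4+/- against Smarca4+/+, in CC (left) and CB (right), with ± SE (black) and with single libraries left out (coloured). Marco is not drawn because it was at 0 in Smarca4+/- CB. In CB, 7 of the 9 genes are above 0 without Smarca4+/+ CB replicate 2.

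The difference between genotypes in the CC to CB change, the interaction, passed the edgeR test for 0 of 9 genes (smallest adjusted p = 0.609), where 0.0% of all genes passed, and 0 of 9 had an unadjusted p under 0.05, where 9.19% of all genes did. It was positive for 8 of 9, from 0.23 (SE 0.95) for Vcam1 to 1.44 (SE 1.19) for Siglec1 outside Marco, and -0.34 (SE 0.68) for Cd5l. The median of the 9 was 0.84, against 0.103 for all genes. Most of the 9 moved together between libraries, so their signs are not independent. Without Smarca4+/+ CB replicate 2 the interaction was negative for 9 of 9, with Vcam1 at -1.96, Cd163 at -1.59 and Spic at -1.34. Over all alternatives, DESeq2 included, the smallest adjusted p was 0.232. The 2 CC to CB ratios of a gene given above are thus not shown to differ between genotypes.

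Among other genes of heme and iron handling, a few were called higher in CC and most were not called. These calls come from the contrast that prompted the choice of the 9 genes and are not independent of it. Of 17 listed gene names of transport and breakdown, 16 were in the table and 12 were tested. Of these, 3 rose, 0 fell and 9 did not pass in Smarca4+/- cells, and 4 rose, 0 fell and 8 did not pass in Smarca4+/+ cells. Over all genes 2.17% rose and 1.5% fell in Smarca4+/- cells, and 3.72% rose and 3.76% fell in Smarca4+/+ cells. Trf, which encodes transferrin, the iron carrier of plasma, stood at 5.23 (log2, SE 0.67) in Smarca4+/- and 4.32 (SE 0.65) in Smarca4+/+ cells. Lrp1, which encodes the receptor for heme bound to hemopexin, stood at 5.23 (SE 0.63) and 3.99 (SE 0.59). The phagosomal metal transporter gene Slc11a1, chosen after its values were seen, stood at 3.95 (SE 0.68) and 2.92 (SE 0.67). Trf, Lrp1 and Slc11a1 are the genes that rose in Smarca4+/- cells. In CB each was highest in Smarca4+/+ replicate 2, as the 9 were, and Trf is among the 10 genes closest to the 9 in profile. Their calls therefore restate what prompted the choice of the 9, and no p-value is given for them.

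Slc48a1, which encodes a heme transporter of the phagolysosome, rose in Smarca4+/+ cells (1.46, SE 0.39, adjusted p = 0.0444) and stood at 1.36 (SE 0.38, adjusted p = 0.0794) in Smarca4+/- cells. The transferrin receptor gene Tfrc stood at 0.67 (SE 0.31) and 0.81 (SE 0.31) and did not pass in either. Hpx and Heph, which encode hemopexin and a ferroxidase of the gut, were listed at 0 counts in all 8 libraries. None of the 12 was called between genotypes by edgeR in CC or in CB (smallest adjusted p = 0.361 in CC).

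Of 9 genes of iron storage and sensing, 1 rose and 0 fell in Smarca4+/- cells, and 3 rose and 0 fell in Smarca4+/+ cells. Ftl1, the ferritin light chain, rose by 1.61 (SE 0.21, adjusted p = 0.00309) and 1.59 (SE 0.21, adjusted p = 0.00206). Fth1, the ferritin heavy chain, stood at -0.25 (SE 0.24) and 0.26 (SE 0.25). Both have processed pseudogenes in the mouse genome that could share their reads, so these values are uncertain to that extent. Hfe (5.19, SE 1.27) and Ncoa4 (1.52, SE 0.37), chosen after their values were seen, rose in Smarca4+/+ cells. The median of the list was 0.11 and 0.26. Of 11 regulators and targets of the response to heme and oxidants, 8 were tested, Slc7a11 was listed at 0 counts in all 8 libraries, and 0 passed in either genotype by edgeR (smallest adjusted p = 0.0886 in Smarca4+/- and 0.13 in Smarca4+/+ cells). Nfe2l2, which encodes the activator NRF2, stood at -0.18 (SE 0.49) and 0.21 (SE 0.50), Keap1, its inhibitor, at -0.09 (SE 0.35) and -0.23 (SE 0.36), and Txnrd1, a target, at 0.19 (SE 0.28) and -0.10 (SE 0.29).

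Of 17 other genes of splenic macrophages, 14 passed the low count filter. Higher macrophage genes in CC prompted the choice of the 9, so these genes too are described with no test. Their median log2 fold change, CC against CB, was 4.39 in Smarca4+/- and 3.62 in Smarca4+/+ cells, where that of all genes was -0.08 and -0.19. Csf1r, the receptor for the macrophage growth factor, was at 752 and 304 CPM in Smarca4+/- CC and at 583 and 781 in Smarca4+/+ CC, against 20.2 and 12.7 in Smarca4+/- CB and 8.79 and 56.7 in Smarca4+/+ CB. The log2 values were 5.97 in Smarca4+/- and 4.88 in Smarca4+/+ cells for Adgre1, a surface receptor gene used to mark mouse macrophages. They were 4.51 and 4.04 for Mrc1, the mannose receptor, and 4.62 and 3.97 for Axl, a receptor for dying cells. Treml4, a receptor gene of splenic macrophages, stood at 5.33 and 5.26 on that scale. Spi1, the gene of PU.1 and also active in B cells, stood at -0.80 and -0.89, and is named after its values were seen.

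Cd209b, which encodes the lectin that defines marginal zone macrophages, was listed at 0 counts in all 8 libraries, as was Vsig4. With counts taken as independent, a count of 0 allowed a level of up to 1.09 CPM over the 4 CC libraries and 0.0371 CPM over the 4 CB libraries. Marco, the other gene of that cell, stood at 2.37 to 35.7 CPM in CC and Timd4, found on marginal zone and other resident macrophages and named after its values were seen, at 0 to 2.37 CPM. The label of marginal zone macrophages therefore rested on Marco, on 16 counts in Smarca4+/- CC and 34 in Smarca4+/+ CC. Siglec1 is a gene of metallophilic macrophages, and the red pulp genes Hmox1, Slc40a1, Vcam1, Cd163, Fcna and Spic held most of the reads. Of 6 genes of macrophages in other organs, Clec4f (liver), Gata6 (peritoneum), Siglecf (lung) and Sall1 (brain) were listed at 0 counts in all 8 libraries. The rest of that list, Tmem119 and P2ry12, were higher on average in CC than in CB, on 18 and 99 counts over all libraries. Their log2 fold changes were 5.73 and 3.04 in Smarca4+/- cells, and 8.13 and 2.998 in Smarca4+/+ cells. The 6 summed to 3.57 to 18.7 CPM in the CC libraries and to 0.653 to 1.63 CPM in the CB libraries.

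Other cell types were represented as well. Vcam1 is also made by stroma and endothelium, whose 16 genes summed to 276 and 127 CPM in Smarca4+/- CC and 223 and 206 in Smarca4+/+ CC, against 41.9 and 48.6 in Smarca4+/- CB and 53.7 and 52.7 in Smarca4+/+ CB. Stab2, a scavenger receptor gene of sinusoidal endothelium, stood at 90.8 and 23.7 CPM in Smarca4+/- CC and 60.8 and 65.4 in Smarca4+/+ CC, against 1.27 and 1.06 in Smarca4+/- CB and 0 and 9.06 in Smarca4+/+ CB. It lay above every CB library in every CC library but did not pass the test (adjusted p = 0.0541 in Smarca4+/- and 0.103 in Smarca4+/+ cells by edgeR). Col4a1, a basement membrane collagen gene, stood at 7.11 to 32.0 CPM in Smarca4+/- CC and 3.57 to 22.9 in Smarca4+/+ CC. It reached at most 0.305 CPM in a CB library. It passed the low count filter through its CC values, so it is described with no test. Pecam1, which leukocytes share, made up 81.8 to 124 CPM of the sum in CC, and Pdgfrb, Pdpn, Ccl19, Ccl21a, Kdr and Tek were listed at 0 counts in every library. Monocyte genes (7) summed to 58.8 and 19.0 CPM in Smarca4+/- CC and 118 and 81.7 in Smarca4+/+ CC. In CB they summed to 1.48 and 1.44 CPM in Smarca4+/- and 1.73 and 2.05 in Smarca4+/+ libraries. Several genes of both lists, such as Ccr2 and Col1a2, were near 0 in CB and passed the low count filter through CC. Calls of CC against CB are therefore not counted for these lists. The part of monocyte, stromal and endothelial RNA in the levels of the 9 genes was not tested. The 10 genes of complement C1q and phagocytes, described with no test for the reason given for macrophage genes, had a median log2 value of 4.40 in Smarca4+/- and 3.996 in Smarca4+/+ cells, with C1qa at 5.10 and 4.74.

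Red cell and T cell genes were higher in CC too. Erythroid genes summed to 518 and 147 CPM in Smarca4+/- CC and to 751 and 830 in Smarca4+/+ CC, against 14.0 and 10.4 in Smarca4+/- CB and 19.4 and 15.8 in Smarca4+/+ CB. Several erythroid genes, such as Car1 and Klf1, named after their values were seen, were near 0 in CB. They passed the low count filter through CC, so calls of CC against CB are not counted for this list. T cell genes summed to 275 and 225 CPM in Smarca4+/- CC and 477 and 538 in Smarca4+/+ CC, against 111 to 136 CPM in the CB libraries, of which Lck, also read in B cells, made up 108 to 132 CPM. Neutrophil genes, such as Ngp and S100a9, summed to 385 and 80.6 CPM in Smarca4+/- CC and were listed at 0 counts in both Smarca4+/+ CC libraries. Cxcr2 (neutrophils) and Cd209a (dendritic cells) were listed at 0 counts in all 8 libraries. Of the 4 neutrophil genes tested, 0 passed in either genotype, as did 0 of 2 dendritic cell genes and 0 of 2 genes of macrophages in other organs. The part of red cell, T cell and neutrophil RNA in the levels of the 9 genes was not tested.

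**Figure D4:**
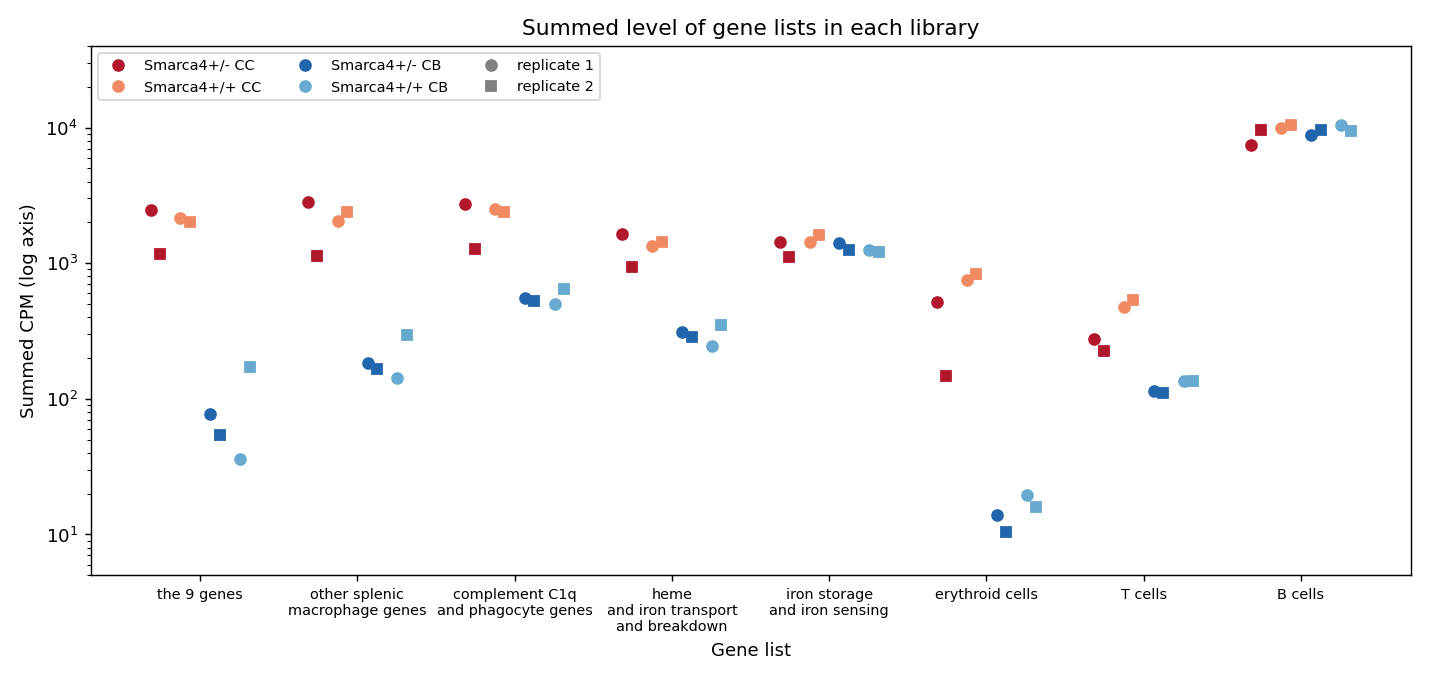
Summed CPM of 8 gene lists on a log axis, with 1 point per library. The 9 genes and the other macrophage lists are higher in CC than in CB, while iron storage and B cell genes lie in the same range in both.

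The genes with the profile most like the mean of the 9 were sought among 6204 genes with at least 20 CPM on average in CC. The measure was Pearson's r of log2(CPM + 1) over the 8 libraries, which share the split into deep CB and shallow CC libraries, so r is a description only. The 10 closest were Gfra2 (0.999), Adgre1, Itgb5, C1qb, Mrc1 (0.997 each), Treml4, Trf, Myo10, Sdc3 and Actn1 (0.996 each). Gfra2, which encodes a receptor for neurturin, stood at 92.1 and 40.3 CPM in Smarca4+/- CC and 71.5 and 65.4 in Smarca4+/+ CC, against 3.58 and 2.69 in Smarca4+/- CB and 1.63 and 8.45 in Smarca4+/+ CB. Within the 9, each gene set against the mean of the other 8 gave r from 0.881 for Spic and 0.928 for Marco to 0.994 for Slc40a1. Spic and Marco had the fewest counts of the 9 beside Siglec1 (0.957).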

How the data were processed

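Per the file headers, the authors' deposited table gives raw counts of reads for each gene in 8 libraries and, in another column, gene length in bases. Per the labels' protocols, libraries were made from total RNA depleted of ribosomal RNA. Per the submitters' processing notes, FastQC, STAR, featureCounts, Subread, R 4.2.1 and build mm10 were used. Versions of aligner and counter, strand setting and treatment of multimapping reads were not stated in the sources used here. Symbols came from GENCODE M21 by Ensembl ID without version (55154 of 55421 matched).

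Counts were analysed with edgeR 4.0.16 in R 4.3.3: filterByExpr (minimum count 10, minimum total 15), TMM scaling, and a quasi-likelihood fit of 4 group means to all 8 libraries (4 residual degrees of freedom), 2-sided, with Benjamini-Hochberg adjustment over 12997 genes at 0.05. SE is the fold change over the root of F. CPM uses the same scaling for all genes. DESeq2 1.42.0, other scalings and filters, a replicate block, thinned CB libraries (to 657641 counts) and each library left out were alternatives. A count of 0 is read as up to 3 counts, over a group unless stated, for counting error only. This takes counts as independent. Small counts were often even, so these limits may be too low and the folds that rest on them too high. Shares have exact binomial (Clopper-Pearson) intervals.

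The 9 genes and the 13 other lists were chosen with earlier results of these data known. Chosen for naming from each list were up to 4 genes with the highest mean CC CPM and any at 0 throughout, plus the 10 genes closest in profile to the 9 (immunoglobulin, predicted and clone genes left out). Others are marked as named after their values were seen. The listed name Mfsd7b had no match among the symbols used.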

Additional observations from a re-analysis of the deposited data

How the results depend on the processing

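Counts of called genes over the whole table moved with the tool and the filter. With DESeq2 846 genes were called between genotypes in CC, 3 in CB and 339 for the interaction, and 1487 (Smarca4+/-) and 2167 (Smarca4+/+) in the comparison of CC with CB, where edgeR called 3, 0, 0, 477 and 973. Without the low count filter they were 323, 13, 46, 1142 and 1651. The split of CC against CB calls into higher and lower moved with the scaling: TMM gave 282 and 195, RLE 305 and 122, and scaling by totals 326 and 99 in Smarca4+/- cells, and 484 and 489, 541 and 367, and 568 and 289 in Smarca4+/+ cells, where total count scaling moved the median of all genes to -0.00404, against -0.19 with TMM. With only the groups compared they were 2 in CC, 5 in CB, and 308 and 292 for CC against CB. With CB thinned they were 8 in CC, 2 for the interaction, and 275 and 620 for CC against CB. At an unadjusted p under 0.05, edgeR gave 84 genes between genotypes in CB and 1195 for the interaction. With single libraries left out the counts ran from 0 to 3 (genotype in CC), 0 to 1 (genotype in CB and interaction), 0 to 932 (Smarca4+/-, the 0 without either Smarca4+/- CB library) and 222 to 1413 (Smarca4+/+).

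In CC against CB, the 9 genes were positive in every alternative that tested them, with sizes that moved both ways: in Smarca4+/+ cells Spic ran from 1.51 to 5.63 and Vcam1 from 3.63 to 6.67 with single libraries left out. The replicate numbers are not given as pairs. Deviations of same-numbered libraries correlated at 0.0318 (CC) and -0.0596 (CB) between genotypes and at 0.0714 (Smarca4+/-) and 0.018 (Smarca4+/+) between fractions. With a replicate block, edgeR called 4, 0, 1, 443 and 812 genes in the order first given.

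Signs of the genotype values changed for Spic in CB (0.04, but -0.031 with the block and -0.10 with CB thinned), for Cd5l in CB (0.027 with total count scaling), and in the interaction for Vcam1 (-0.049) and Fcna (-0.41) with CB thinned. With single libraries left out, the log2 values in CC ran from -0.65 to 0.61 for Slc40a1, -0.91 to 0.25 for Vcam1, -1.19 to 0.41 for Cd5l, -1.55 to 0.10 for Fcna, -1.30 to 0.37 for Cd163 and -0.23 to 0.78 for Siglec1. In CB they ran from -1.28 to 0.40 for Hmox1, -1.72 to 0.91 for Slc40a1, -0.83 to 2.51 for Spic, -1.28 to 1.76 for Vcam1, -0.19 to 0.093 for Cd5l, -1.96 to 1.34 for Cd163 and -2.07 to 0.81 for Siglec1. In the interaction they ran from -0.79 to 0.89 for Hmox1, -0.77 to 1.85 for Slc40a1, -1.34 to 2.70 for Spic, -1.96 to 1.08 for Vcam1, -1.14 to 0.46 for Cd5l, -0.48 to 1.16 for Fcna, -1.48 to 5.17 for Marco, -1.59 to 1.71 for Cd163 and -0.61 to 2.27 for Siglec1. The cause of each move was not tested beyond the library or setting named. The CC depth limits Marco, Spic and Siglec1, which had 2 to 76 counts in a CC library.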

Other observations

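Neutrophil granule genes differed between the CC libraries. Mpo, which encodes myeloperoxidase, stood at 85.5 and 0 CPM in Smarca4+/- CC and was at 0 in Smarca4+/+ CC, with 0.105 and 0 CPM in Smarca4+/- CB libraries and 0 in both Smarca4+/+ CB libraries. Ngp stood at 115 and 30.8 CPM in Smarca4+/- CC and at 0 in both Smarca4+/+ CC libraries, where a count of 0 allowed up to 2.56 CPM over both. By edgeR, neither Ngp nor any other list gene tested was called between genotypes in CC, with a smallest adjusted p in the neutrophil list of 0.162. Mpo did not pass the low count filter and was not tested.

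The monocyte genes Ccr2 and F13a1 were at 0 counts in both Smarca4+/- CC libraries. In Smarca4+/+ CC, Ccr2 stood at 7.15 and 26.2 CPM and F13a1 at 21.4 and 19.6 CPM, and neither passed the test between genotypes (adjusted p = 0.254 and 0.206 by edgeR).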
